A study of Mus musculus with 3 samples.

Results

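Processed pseudogenes are copies of messenger RNAs that were reverse transcribed and inserted elsewhere in the genome. They carry no introns and, as a rule, no promoter of their own, and most copies decay by mutation until they no longer read as a protein. Genes with abundant messages, above all those of ribosomal proteins, have left many such copies in mouse, and the reads of a young copy can look the same as reads of the gene it came from, called its parent here.

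The genes described here are the processed pseudogenes with a mean level of at least 1 TPM (a level scaled by effective transcript length and library) over the 3 libraries. Of the 55450 annotated genes found in both kinds of deposited table, 9940 had only transcripts annotated as processed pseudogene, and 167 of these passed the minimum. They are called the members, and each has 1 annotated transcript. The level in the gene tables chose them, so their levels there are a description and carry no test.

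All 3 libraries held ribosomal RNA-depleted total RNA from the cytosol of C57BL/6J bone marrow-derived macrophages, treated with lipid A at 100 ng/ml for 60 min. They are biological replicates 1, 2 and 3 of 1 group, each with its own biosample and a shared donor entry. Lipid A is the part of bacterial lipopolysaccharide that Toll-like receptor 4 senses, and bone marrow-derived macrophages are grown in culture from precursors in the marrow. Untreated cells and nuclear RNA are not analysed here, so nothing below is a response to lipid A or an enrichment in the cytosol.

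The gene tables held 63944236, 71989793 and 69305836 counts on annotated genes in replicates 1, 2 and 3. The means of all 7 macrophage markers lay between 21.7 and 5032 TPM, while those of the 17 markers of T, NK and B cells, neutrophils, erythroid cells and stroma were at most 0.16 TPM. The signal recognition particle RNAs Rn7s1 and Rn7s2 took 57.1, 69.6 and 62.2% of the TPM, and nuclear-encoded protein-coding genes 32.7, 21.6 and 23.6%. Replicate 1 was the highest library for 125 of the 167 members (74.9%), against 95.1% of all 9706 genes of at least 1 TPM. The sources used here do not say whether reads were counted by strand, and values of close copies, overlapping genes and antisense genes are uncertain.

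The members' sequences show how close they stand to their parents. Shown first are annotated sequences of 3 members, from the GENCODE M21 transcripts of GRCm38, each the same base for base as the coding sequence of its parent. Gm12338 copies Cox7c, which encodes a subunit of cytochrome c oxidase, and is given whole. Rpl31-ps8 copies the ribosomal protein gene Rpl31, and Tpt1-ps3 copies Tpt1, which encodes the translationally controlled tumour protein; their first 120 of 378 and 519 bases are given. Start and stop codons are in capitals.
Gm12338: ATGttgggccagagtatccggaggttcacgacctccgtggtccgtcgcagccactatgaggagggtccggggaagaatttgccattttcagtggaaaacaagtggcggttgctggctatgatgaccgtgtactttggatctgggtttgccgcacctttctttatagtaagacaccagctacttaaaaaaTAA
Rpl31-ps8: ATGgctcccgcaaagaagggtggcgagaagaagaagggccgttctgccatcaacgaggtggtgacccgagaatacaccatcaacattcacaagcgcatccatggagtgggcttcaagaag
Tpt1-ps3: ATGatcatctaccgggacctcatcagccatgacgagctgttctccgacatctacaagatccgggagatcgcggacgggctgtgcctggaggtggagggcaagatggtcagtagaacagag

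In GRCm38, Gm12338 (ENSMUSG00000081485.5) lies at chr11:75599763-75599954 on the minus strand, in an intron of Pitpna on the opposite strand. Rpl31-ps8 lies at chr15:90764279-90764656 and Tpt1-ps3 at chr6:99877816-99878334, both on the minus strand and outside protein-coding genes.

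A pair of members with differences from their parents is shown for contrast, also chosen after their values were seen. Capitals mark bases that differ between the member and its parent over the 120 bases shown, which lie in the parent's coding sequence. Mpc1-ps copies Mpc1, a subunit of the mitochondrial pyruvate carrier, and differs from it at 1 base of its 330, written G41A (the parent's base, the position counted from 1 at the 5′ end of the stretch, and the member's base). Gm19253, at chr6:49071630-49071936, copies Mrps36, which encodes a mitochondrial protein, and differs at 9 bases of the stretch, from A19T to T120C.
Mpc1-ps: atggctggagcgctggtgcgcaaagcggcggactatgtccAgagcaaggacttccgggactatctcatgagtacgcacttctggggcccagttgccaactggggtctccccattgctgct
Mpc1: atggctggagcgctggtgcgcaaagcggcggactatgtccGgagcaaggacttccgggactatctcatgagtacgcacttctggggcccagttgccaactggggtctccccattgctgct
Gm19253: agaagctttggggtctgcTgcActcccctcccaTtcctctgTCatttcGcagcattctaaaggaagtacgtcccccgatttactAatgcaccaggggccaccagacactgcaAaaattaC
Mrps36: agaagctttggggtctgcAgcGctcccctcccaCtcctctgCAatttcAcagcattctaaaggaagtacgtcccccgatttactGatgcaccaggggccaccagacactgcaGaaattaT

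Most members were nearly identical to a parent, with 133 at 99% identity or more and 13 under 95%. A parent was taken as the protein-coding gene of another locus whose transcript matched the most bases over at least 50% of the pseudogene. All 167 members had one, against 8948 of the 9773 other processed pseudogenes. The members' median identity to the parent was 99.8% (quartiles 99.3 and 100%), against 88.9% (81.8 and 94.5%) for the others. Of the members 58 (34.7%) equalled their parent over their whole length, against 45 (0.503%) of the others with a parent. Among all 103 such perfect copies, 58 (56.3%) were members. The parent lay on another chromosome for 161 of the 167.

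**Figure D1:**
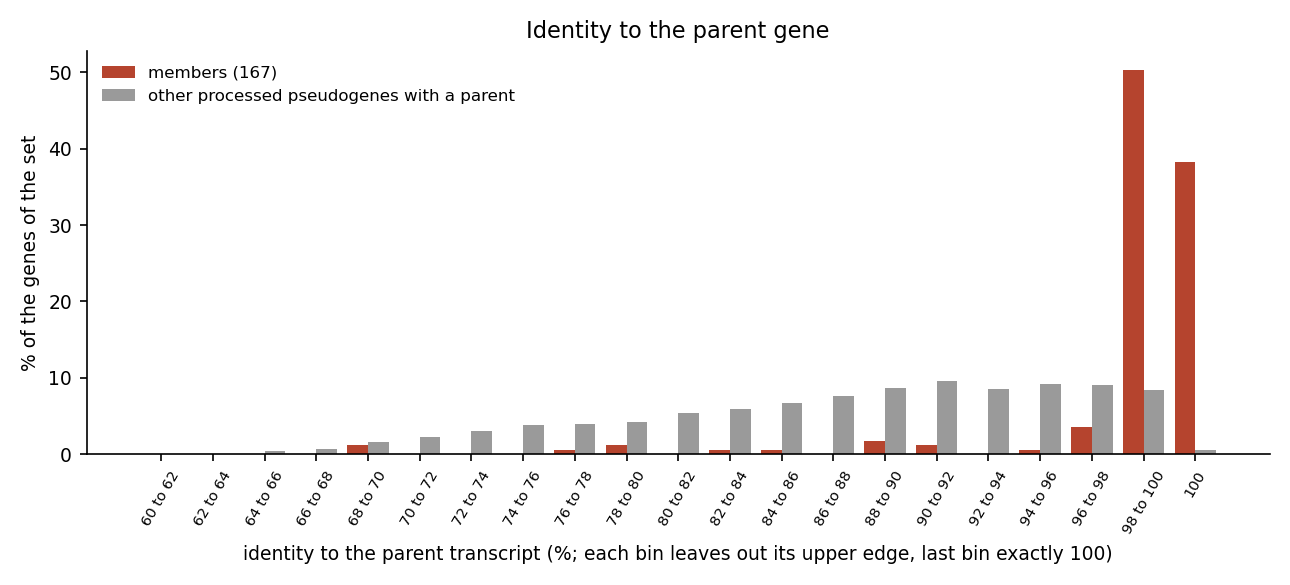
Identity to the parent transcript (x axis, percent, in bins) as a percentage of the genes of each set (y axis), for the 167 members (left bars) and the 8948 other processed pseudogenes with a parent (right bars). The members stand in the last bins, with 50.3% from 98 to under 100% identity and 38.3% at 100% over the matched part, against 8.44% and 0.592% of the others.

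Reading frames were kept more often among members than among the other processed pseudogenes. An annotated sequence that starts with ATG, ends with a stop codon and has no stop between them was found for 67 of the 167 members (40.1%), against 485 of the 9773 others (4.96%). Of these 67 members, 34 were perfect copies of their parent. A longest frame was also taken, from an ATG to a stop or to the end of the sequence. The longest frame had a median of 100% of the parent's length among members (quartiles 54.5 and 100%) and 33.5% among the others (18.2 and 56%). Of the 58 perfect copies, 57 lay wholly inside the coding sequence of their parent, so their annotated stretch holds none of the parent's untranslated ends. The median annotated length was 472 bases over the 167 members, and 528 bases over the other processed pseudogenes.

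How much of a member could be read as its own was measured with windows of 31 bases. A window counted as shared where it also stood in a transcript of another gene, on either strand. The median member shared 97.7% of its windows, against 14.7% for the other processed pseudogenes. All windows were shared in 70 members (41.9%), against 392 of 9771 others (4.01%). Only 11 members shared fewer than 50% of their windows, and 86 lay between.

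The levels themselves were low for most members and high for a few. The median member stood at 2.75 TPM, 61 lay under 2 TPM and 28 reached 10 TPM. Together the members held 2009, 1406 and 1490 TPM in replicates 1, 2 and 3, which is 0.163 ± 0.0327% of the TPM (SD, n = 3). In counts they held 46501, 51712 and 46268, or 0.0727, 0.0718 and 0.0668% of the library (95% Wilson intervals 0.07206 to 0.07338, 0.07122 to 0.07245 and 0.06615 to 0.06737%, counting error only). The 10 highest took 49.2, 57.4 and 53.6% of the members' TPM.

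Copies of ribosomal protein genes led the list. Rpl31-ps8 stood at 154, 136 and 116 TPM in replicates 1, 2 and 3, beside its parent Rpl31 at 211, 126 and 108 TPM. The pseudogene lay below the parent in replicate 1 and above it in replicates 2 and 3. Gm7536, a copy of Rpl27a, had 104, 107 and 104 TPM, and Rps23-ps1, a copy of Rps23, had 83.9, 93.8 and 86.6 TPM. Their parents stood higher in every gene-table library, at 165, 119 and 113 TPM for Rpl27a and 313, 213 and 213 TPM for Rps23. Gm10443, a copy of Rps28, had 94.8, 69.3 and 81.4 TPM from 268, 325 and 272 counts, since only 25.9 to 31.6 of its 210 bases count as effective length. Gm11518 and Rpl27-ps3 have the same annotated sequence, a copy of Rpl27, and the same value in each library, 65.5, 55.5 and 56.4 TPM.

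The other 4 of the 10 highest copy genes of other functions. Gm12338 had 79.7, 114 and 132 TPM, against 98.9, 86.8 and 91.3 TPM for Cox7c, and passed its parent in replicates 2 and 3. Tpt1-ps3 had 159, 69.9 and 73.0 TPM, far under the 1576, 1154 and 990 TPM of Tpt1. Gm12481, a copy of Serf2, which encodes a small protein linked to amyloid aggregation, had 124, 74.3 and 56.3 TPM and lies in an exon of Fam221b on the opposite strand. Gm10123, a copy of the cyclophilin A gene Ppia, had 57.4, 32.0 and 37.4 TPM. All 10 were perfect copies of a protein-coding transcript.

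**Figure D2:**
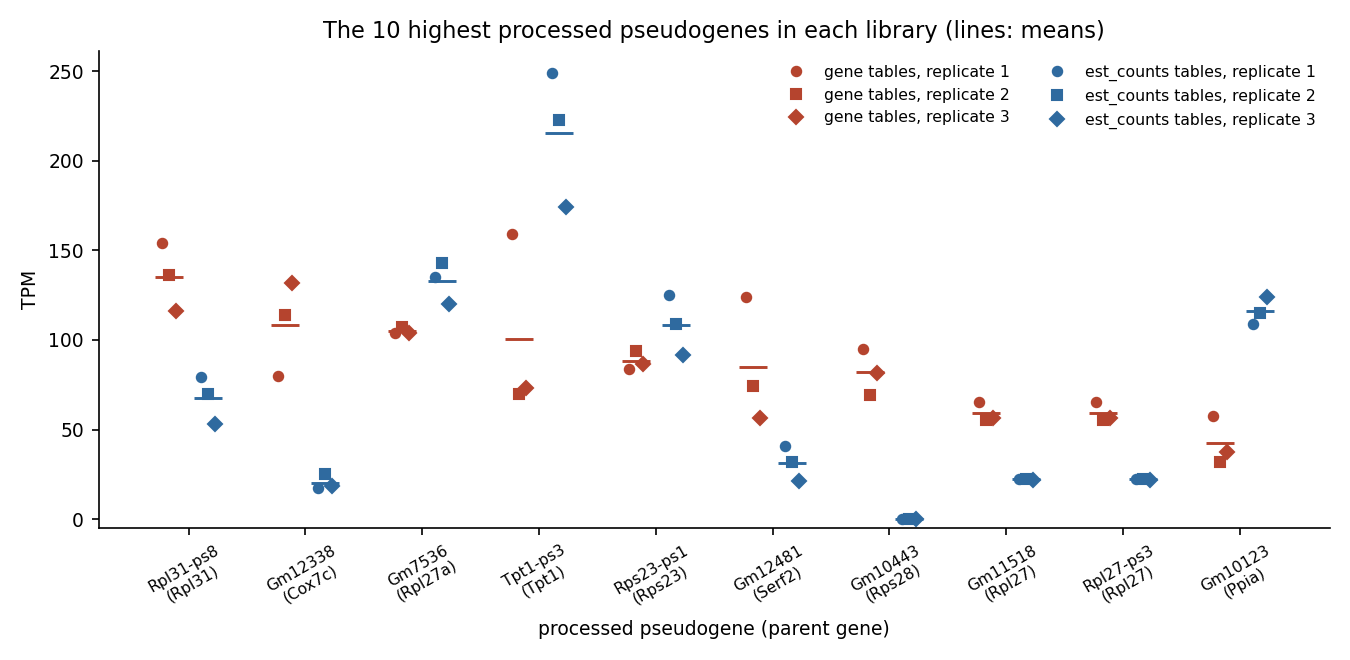
TPM (y axis) of the 10 highest members, each with its parent in brackets, in the gene tables (left of each pair) and the est_counts tables (right), with a symbol per replicate and a line at the mean. Gm10443 stands at 69.3 to 94.8 TPM in the gene tables and at 0 in the est_counts tables. Gm7536, Tpt1-ps3, Rps23-ps1 and Gm10123 stand higher in the est_counts tables in each replicate.

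The members were then sorted by the function of their parents. Ribosomal protein genes were the parents of 59 members (35.3%), while 23.1% of all processed pseudogenes had such a parent. These 59 copied 48 genes and summed to 836 TPM. Translation factor genes were the parents of 7 members, led by Tpt1-ps3, and genes of ubiquitin and the proteasome of 7, led by Ube2n-ps1 at 21, 16.4 and 16.9 TPM, whose parent encodes a ubiquitin-conjugating enzyme. Of the processed pseudogenes with these parents, 2.56, 3.54 and 4.09% were members.

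Smaller groups had parents of other functions. RNA-binding protein genes were the parents of 8 members, led by Gm8186 at 20.1, 7.57 and 10.4 TPM, a copy of the spliceosomal gene Snrpg. Mitochondrial function genes were the parents of 6, led by Gm12338, and chromatin genes of 6, led by Gm15387 at 7.34, 6.37 and 11.7 TPM, a copy of Hmgb1, which encodes a DNA-bending protein. Glycolysis genes were the parents of 5, led by the Gapdh copy Gm7336 at 5.72, 8.13 and 4.62 TPM. Cytoskeleton genes were the parents of 2, led by the gamma actin copy Gm12715 at 15.3, 10.8 and 13.9 TPM, and Gm10123 was the only member from the chaperone and folding list. No member came from the ferritin list or from the list of inflammation and interferon genes, of 9 and 30 processed pseudogenes with such parents. Members made up 1.68% of all processed pseudogenes, beside 1.6% for chromatin, 1.69% for mitochondrial function and 1.47% for glycolysis parents, and at that share 9 and 30 genes are too few to read anything from 0 members. The parents of the other 66 members stood in none of these lists. They include Gvin1 for Gm18852 and 9930111J21Rik2 for Gm12250. The lists went by gene symbol, so 0 members from a list does not mean that no parent has such a function.

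A parent with several members was the exception. The 167 members had 144 parents, of which 20 had more than 1 member and none more than 3. The members of Rpl27 summed to 134, 111 and 114 TPM, against 118, 65.9 and 64.6 TPM for Rpl27 itself. Those of Eef1a1, the elongation factor that brings aminoacyl-tRNA to the ribosome, summed to 15.5, 9.40 and 10.2 TPM, against 2098, 1586 and 1497 TPM for the parent.

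Most members lay far below their parents. By mean TPM 159 of the 167 were lower than the parent, and 157 were lower in each of the 3 libraries. The median member stood at 5.43% of its parent (quartiles 1.18 and 19.3%), and 32 members lay under 1%. Where reads fit both a copy and its parent, this ratio depends on how the quantifier splits them.

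The 8 members above their parents were of different kinds. Ndufb4c, a perfect copy of the complex I subunit gene Ndufb4, had 34.7, 24.8 and 28.8 TPM, against 8.79, 6.34 and 6.75 TPM for Ndufb4. Llph-ps2 had 13.6, 10.9 and 12.5 TPM, against 9.06, 6.80 and 7.36 TPM for Llph. Gm7334 had 1.79, 1.47 and 1.54 TPM, against 0.97, 0.71 and 0.67 TPM for the antiproliferative gene Btg3. In these and in Gm8186 the copy stood above its parent in each library, and it shared from 95.6 to 100% of its windows with other genes. In the est_counts tables Gm8186 averaged 3.52 TPM, below Snrpg at 4.39 TPM, and Gm12338 averaged 20.4 TPM, below Cox7c at 41.1 TPM. The rest of the 8 stayed above their parents there by mean. Other members lay below their parents in the gene tables but above them in the est_counts tables. Gm7536 had 135, 143 and 120 TPM there, against 37.5, 39.2 and 42.9 TPM for Rpl27a. Rps23-ps1 had 125, 109 and 91.8 TPM, against 83.5, 87 and 85.4 TPM for Rps23. The same held by mean for Gm19253, Gm11425, Mrpl23-ps1 and Gm4739, while 155 of the 167 members lay below their parents.

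Bambi-ps1 and Gm17147 had sequences largely their own. Bambi-ps1 had 2.39, 1.76 and 1.70 TPM from 83, 100 and 82 counts, against 0.29, 0.33 and 0.27 TPM for Bambi, which encodes a decoy receptor of TGF-beta signalling. Its identity to Bambi was 88.6% and 3.02% of its windows were shared. In the est_counts tables it averaged 1.32 TPM, and Bambi 0.129 TPM. Gm10557, by contrast, shared 95.9% of its windows with other genes. It stood at 4.73, 3.52 and 3.22 TPM, against 0.01 to 0.03 TPM for the cadherin gene Cdh11, its best match. Gm17147 shared 0% of its windows and had 1.86, 0.84 and 1.77 TPM, against 1.76, 1.15 and 1.14 TPM for Nudt1, whose enzyme clears oxidised nucleotides. It lay below its parent in replicate 2, as Gm12338 did in replicate 1.

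**Figure D3:**
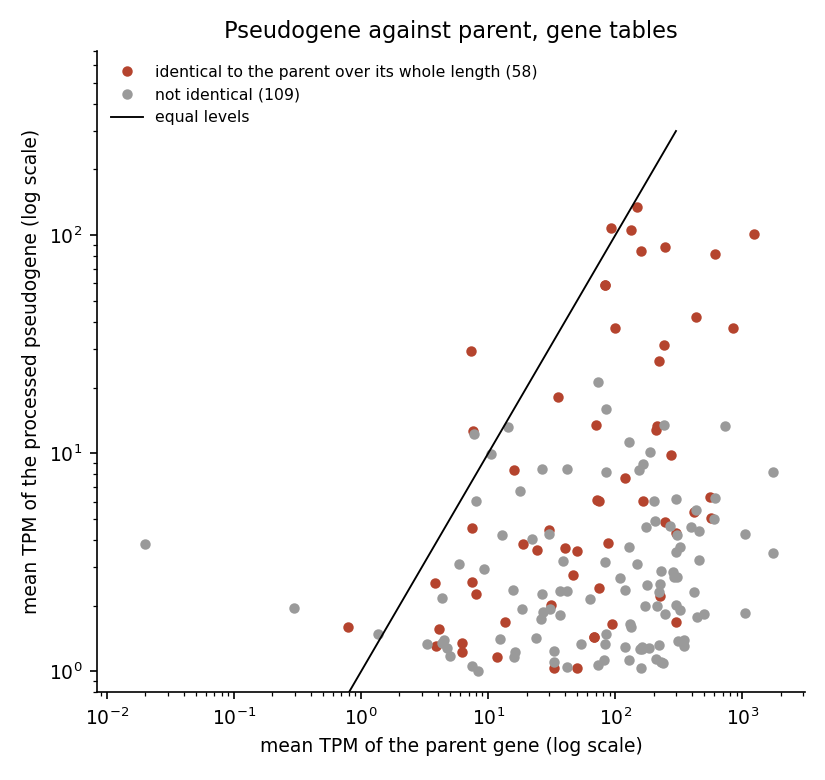
Mean TPM of each member (y axis) against the mean TPM of its parent gene (x axis), both on log scales, for 58 members identical to the parent over their whole length and 109 that are not. Of the 167 points 159 lie under the line of equal levels, and the 8 above it include the 2 points with parents under 0.3 TPM, Bambi-ps1 and Gm10557.

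The same libraries were quantified a second time in the est_counts tables, which were made from the reads rather than from alignments. Per library, the difference between the tables was taken as log2(TPM + 0.1) in the gene table minus that in the est_counts table, less the median difference of protein-coding genes, which was 1.47, 0.96 and 0.91 in replicates 1, 2 and 3. A gene was counted where the difference passed 2-fold the same way in all 3 libraries. Among the members 70 (41.9%) were higher in the gene tables, beside 1.73% of all 9706 genes of at least 1 TPM, and 18 (10.8%) were lower, beside 0.639%. The other 79 were counted in neither direction. The median difference was 1.36 over members (quartiles -0.43 and 2.76) and 0.00 over all genes (-0.11 and 0.07). Without the median subtracted, 96 members were higher and 3 lower. Members were chosen on the gene tables, so the balance between the directions is a description only.

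**Figure D4:**
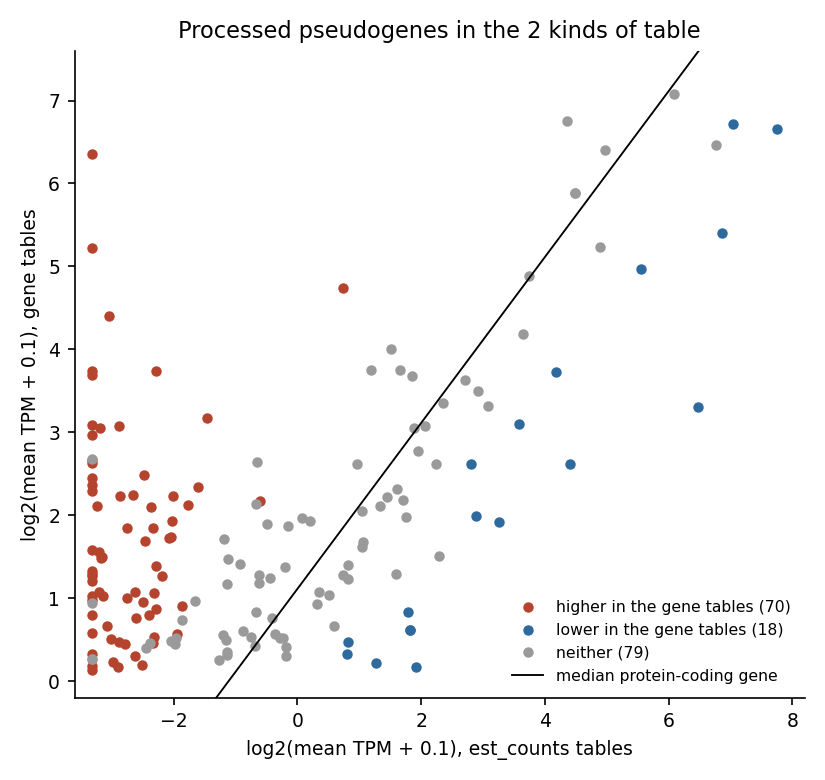
Level of the 167 members in the gene tables (y axis) against the est_counts tables (x axis), both as log2(mean TPM + 0.1), coloured by whether they passed 2-fold in all 3 libraries. The 70 members higher in the gene tables lie left of the line that marks the median protein-coding gene, many at the left edge near 0 TPM in the est_counts tables, and the 18 lower ones lie right of it.

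Of the members 59 averaged under 0.1 TPM in the est_counts tables, and 20 were listed at 0 counts in all 3. Gm10443 was the highest of these. Rps6-ps4, a perfect copy of the ribosomal protein gene Rps6, had 610, 1109 and 941 counts in the gene tables (12.5, 13.8 and 13.8 TPM) and was listed at 0 in each est_counts table. Rpl15-ps3, a perfect copy of Rpl15, had 610, 619 and 591 counts in the gene tables and 2.7e-05, 0 and 0 in the est_counts tables. Mpc1-ps, the copy with 1 base changed, had 22.9, 19.6 and 20.9 TPM in the gene tables, and 0, 0.0648 and 0 TPM in the est_counts tables. Gm10095, with 99% identity to BC004004, had 7.91, 9.68 and 7.74 TPM in the gene tables and was listed at 0 in the others.

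The opposite case was led by Rpl28-ps1, a perfect copy of Rpl28. It had 20.3, 4.99 and 4.16 TPM in the gene tables, and 92.9, 96.3 and 77.3 TPM in the est_counts tables. Gm10123 had 57.4, 32.0 and 37.4 TPM in the gene tables, and 109, 115 and 124 TPM in the est_counts tables. Without replicate 1 the gene-table mean of Rpl28-ps1 was 4.58 TPM, against 9.81 TPM with it. Both copies lay higher in every est_counts library than in any gene-table library.

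Lower members with the same direction were Gm4332, a copy of Rps20, Gm10052, a copy of the RNA-binding protein gene Hnrnpa1, and Gm13092, a copy of the spliceosomal gene Snrpf. Gm4332 had 7.90, 5.17 and 5.01 TPM in the gene tables, and 28.1, 21.6 and 13.9 TPM in the est_counts tables. Gm10052 had 1.10, 0.78 and 1.20 TPM, and 2.49, 3.63 and 4.94 TPM in the same order. Gm13092 rested on 4.87, 23.5 and 0 counts in the gene tables, and its mean of 1.06 TPM was 0.405 TPM without replicate 2.

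The parents did not share the difference. None of the parents of the 88 counted members passed 2-fold in either direction, and with the members' TPM added to that of their parent none of the 88 sums did. The median member stood at 5.43% of its parent, so for most members size alone nearly fixed this outcome. No conclusion is drawn from it. The median difference of the parents was 0.09 for the 70 members higher in the gene tables and 0.14 for the 18 lower ones. Over all 144 parents 142 sums lay in neither direction. The exceptions were Rps12 with Rps12l1 and Rpl12 with Gm11425, where the parents differed by 5.23 and 5.6 on the same scale.

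How the split differed with shared sequence was described in 3 bands. Of the 70 members with every window shared, 19 were higher in the gene tables, 13 lower and 38 neither, with quartiles of the difference at -0.68 and 2.60. Of the 86 members that shared from 50 to under 100%, 51 were higher and 3 lower, and their median level was 2.28 TPM in the gene tables and 0.112 TPM in the est_counts tables. Of the 11 members that shared less than 50%, 0 were higher, 2 were lower and 9 were neither.

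Members with much sequence of their own were seen in both kinds of table. Gm19253, with 13.4% of windows shared, had 15.8, 11.9 and 11.8 TPM in the gene tables, and 20.1, 16 and 18.3 TPM in the est_counts tables. Gm6548, an Eef1a1 copy with 96.7% identity, had 10.8, 6.53 and 7.23 TPM, and 3.65, 3.30 and 3.79 TPM in the same order. After the median difference was subtracted these were -1.58 for Gm19253, which counts as lower, and 0.03 for Gm6548. Gm12250, whose best match reached 68.4% identity, had 10.2, 4.82 and 5.16 TPM in the gene tables, and 4.51, 3.13 and 3.65 TPM in the est_counts tables, a difference of -0.36. Gm12250 was chosen to be named after its values were seen, as were Gm6548, Gm19253, Bambi-ps1 and Gm17147.

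The gene tables carry their own measure of this uncertainty, the posterior SD of each count, given here as a percentage of the posterior mean in the library where it is largest. The median was 10.6% for members and 0% for all genes of at least 1 TPM. It was under 1% for 12 members (7.19%), against 92.2% of all genes, and at least 50% for 25 members (15%), against 0.958% of all genes. For Gm11518 it was 62.8, 41.5 and 31.1%, and for Rpl27-ps3, its copy in sequence, 44.9, 38.1 and 37.0%.

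A second list of expressed processed pseudogenes would come from the est_counts tables. In them 84 processed pseudogenes averaged at least 1 TPM, of which 59 were members, so that 35.3% of the members and 70.2% of the 84 stood in both lists. The same minimum was used although levels of protein-coding genes in the 2 kinds of table differed by the 1.47, 0.96 and 0.91 given above, and the part of this in the overlap was not tested. Of the 25 found in the est_counts tables alone, 14 were listed at 0 in all 3 gene tables.

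The members' counts were then compared between the 3 libraries, a measure that the minimum on mean TPM did not use. A chi-square test of the rounded counts against library sizes scaled by TMM in edgeR, with Benjamini-Hochberg adjustment over all 13054 genes tested, found that 98 of the 146 members tested varied by more than counting error (67.1%). This is close to the 62.4% of all genes tested, so it is not read as a result about the members. Without replicate 1 the count was 63, of which 57 were among the 98. In bulk RNA, fewer cells of a type and less RNA per cell cannot be told apart. The biological coefficient of variation (BCV, the spread between libraries beyond counting error) had a median of 0.24 over members (quartiles 0.20 and 0.29) and 0.12 over all genes tested (0.09 and 0.22). The members' mean counts were lower, with a median of 121 against 953, and BCV was not compared at equal counts. The other 21 members had fewer than 10 counts in at least 1 library and were not tested, whatever their counts in the others, so members with 1 nearly empty library are missing from these counts.

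Among the 146 members tested, the 5 with the highest BCV were all close copies. Close copies are the rule among members, with 133 of the 167 at 99% identity or more, so this is not read as a link. Gm10221, a perfect copy of the ATP synthase gene Atp5l, had 186, 37.8 and 21.4 counts (BCV 0.70), and its mean of 7.71 TPM was 2.02 TPM without replicate 1. Gm49037, a perfect copy of part of the kinase gene Mapk6, had 43.1, 470 and 431 counts (BCV 0.65). Gm8226, a copy of Rpl7a, had 264, 30.9 and 251 counts (BCV 0.63), and replicate 2 alone was low. Its mean of 2.89 TPM was 1.85 TPM without replicate 1. Rpl9-ps7, a copy of Rpl9, had 79.6, 19.8 and 25.5 counts (BCV 0.51), and its mean of 1.09 TPM was 0.455 TPM without replicate 1, the high library.

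Gm10359, the other of the 5, has an identical copy among the members. Its annotated sequence is that of Gm12671, on another chromosome, and both equal a part of Gapdh. Gm10359 had 288, 123 and 794 counts (BCV 0.54; 4.31 TPM on average and 2.52 TPM without replicate 3), and Gm12671 had 288, 123 and 0.02 counts. The counts were equal in replicates 1 and 2 and stood on 1 copy in replicate 3, while Gapdh had 325, 295 and 285 TPM. The est_counts tables gave each copy 368, 0 and 0 counts. In all, 6 members fell into 3 such sets of identical sequence, and the other 2 sets, Gm11518 with Rpl27-ps3 and Gm15801 with Gm8783, had equal counts in every library.

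Some close copies that were not tested had nearly all their counts in 1 or 2 libraries. Rpl7a-ps11, a copy of Rpl7a, had 0, 290 and 0.02 counts, high in replicate 2, the library where Gm8226, the other Rpl7a copy, was low. Rps12l1, a perfect copy of Rps12, had 0, 201 and 279 counts (6.3 TPM on average and 3.52 TPM without replicate 3). Gm14303 had 117, 7.52 and 1.79 counts, and its mean of 37.3 TPM was 2.85 TPM without replicate 1. These 3 and Gm12671 were chosen to be named after their values were seen, except that Gm14303 also stood among the 6 largest differences between the tables.

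**Figure D5:**
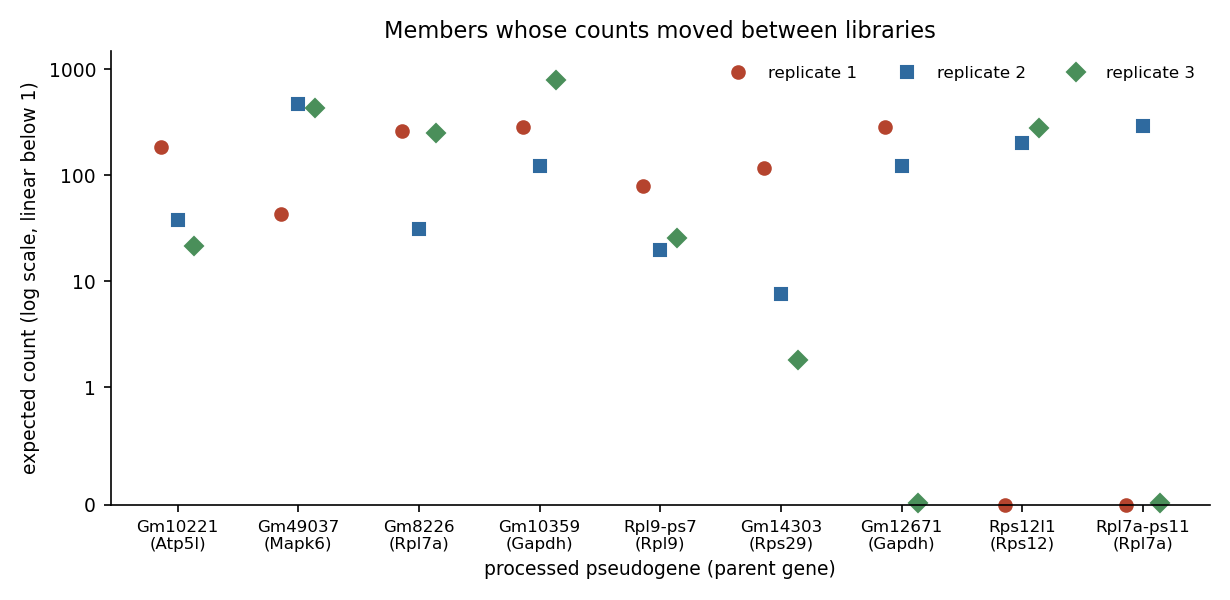
Expected counts (y axis, log scale, linear below 1) in replicates 1, 2 and 3 of the 5 members with the highest BCV and of 4 more close copies, each with its parent in brackets. Gm10359 and Gm12671 have the same 288 and 123 counts in replicates 1 and 2 and part to 794 and 0.02 in replicate 3.

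Whether membership carried over to a library that was not used to choose was described by leaving each out. Of 147 processed pseudogenes chosen on replicates 2 and 3, 136 (92.5%) reached 1 TPM in replicate 1, against 99.5% of all genes chosen the same way. Of 182 chosen without replicate 2, 135 (74.2%) reached it there, against 92.7%, and of 175 chosen without replicate 3, 140 (80.0%) did, against 97.3%. Median levels in replicates 1, 2 and 3 were 3.97, 2.27 and 2.43 TPM for members. For protein-coding genes of at least 1 TPM they were 9.08, 5.76 and 6.87 TPM, and the shares were not compared at equal levels. In 35 members the mean was counted as moved by more than 1.5 times when 1 library was left out, and 16 of these then lay under 1 TPM. Some members moved on more than 1 such omission: 28 moved without replicate 1, 4 without replicate 2 and 8 without replicate 3. A level of 0 in the omitted library moves the mean by exactly 1.5 times. Some such cases, as Gm16550 without replicate 3, are in these counts and others are not, so the counts are inexact at this bound. The share of all genes that moved in this way was not counted. Replicate 1 was the highest library for 95.1% of genes of at least 1 TPM.

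Some members were short. In 12 members the effective length was under 50 bases in every library, where few counts give many TPM. Gm11874, of 130 bases, owed its mean of 2.35 TPM to 1 count in replicate 3, where it reached 7.06 TPM. Of the members 21 had fewer than 10 counts in some library, 6 of them in every library, and 10 had 0 counts in a library. Where counts are divided among close copies by the quantifier, a 0 does not show that no read came from the member. Gm11874 is not such a case by sequence, with 1% of its windows shared. Its 0 counts still depended on the quantifier. The est_counts tables gave it 25, 12 and 16 counts (4.32, 1.61 and 2.84 TPM) in replicates 1, 2 and 3.

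At the minimum itself, the last members inside were Rab7-ps1 and Gm10052, both with 1.03 TPM, and Gm49739 with 1.00 TPM. The nearest outside were Gm15459, Gm20430 and Gm7730, each with 0.96 TPM. Gm49739 rested on 1.87, 6.91 and 2.92 counts and Gm15459 on 175, 192 and 224, so the minimum does not order genes by counts.

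The positions of members and other processed pseudogenes were set beside the annotated protein-coding genes. Of the members 108 (64.7%) lay outside such genes, against 78.6% of the others. In introns, 25 members (15%) lay on the strand of the host gene and 24 (14.4%) on the opposite strand, against 7.54 and 12.6% of the others. In exons, 6 lay opposite to the host and 4 on its strand (2.40%, against 0.317%). The hosts reached 1 TPM for 15 of the 25 and 15 of the 24 in introns, and for 3 of the 6 and 3 of the 4 in exons. This share was not counted for hosts of the other processed pseudogenes. The part of host reads in the members' levels was not tested.

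The 4 members within an exon on the same strand shared from 99.1 to 100% of their windows with other genes. Gm43802, a copy of the thioesterase gene Lypla1 that lies in an exon of the interferon-inducible GTPase gene Gbp7, had 7.49, 3.13 and 2.02 TPM, against 19.6, 10.3 and 8.62 TPM for Gbp7, and its mean of 4.21 TPM was 2.58 TPM without replicate 1. Gm17084, a copy of the proteasome gene Psmb3 in an exon of the kinase gene Ripk1, had 4.68, 3.76 and 3.65 TPM, against 18.1, 11.8 and 14.2 TPM for Ripk1. Their identity to their parents was 77.3 and 69.9%, and every window of each was shared. All 4 were named after their values were seen, the other 2 being Gm18852 in Gm4070 and Gm2541 in Cyyr1. Gm18852 had 2.51, 0.84 and 0.92 TPM, against 61.3, 29.4 and 34.6 TPM for Gm4070. Gm2541 had 1.72, 1 and 1.26 TPM, while its host Cyyr1 had 0 TPM in each library.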

How the data were processed

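The deposited gene tables give an expected count, TPM and a posterior mean and SD of the count per gene, in columns named as RSEM writes them, per the file headers. The posterior values are scores of the authors' quantifier. The deposited est_counts tables give estimated counts and TPM for each transcript under kallisto-style headings, and were summed per gene here. The build is mm10 (GRCm38) with GENCODE M21, and the gene tables came from transcriptome alignments and the est_counts tables from reads, per the deposited description files. The sources used here do not state tool versions.

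Biotypes came from the transcript labels. Sequences, positions and strands came from GENCODE M21. Parents were found with blastn 2.17.0 (word size 16, e-value 1e-10, sense strand), leaving out genes at the member's own locus. TPM differences used a pseudocount of 0.1. It understates differences of low genes before centring, and after centring a gene at 0 in both tables takes a negative difference (-1.47 for Rps12l1 in replicate 1). Variation was tested on expected counts rounded to whole numbers, in edgeR 4.0.16 (R 4.3.3), and the script was tested on simulated data. Where nothing says that cultures came from separate mice, a p-value here covers only how these samples vary, possibly for technical reasons. Rows of no annotated gene held 0.26, 0.0933 and 0.0577% of the counts and were left out. Python 3.11.15 was used.

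Members, lists and tests were chosen with earlier results of these data known. Named were the 10 highest members, 6 with the largest difference between tables in each direction, 5 with the highest BCV, 3 on each side of the minimum, the highest of each parent family, and their parents. With 1 group, no conditions were compared.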

Additional observations from a re-analysis of the deposited data

How the results depend on the processing

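The number of members followed the minimum and the scaling. It was 261 at 0.5 TPM, 106 at 2 TPM and 50 at 5 TPM. It was 84 with the est_counts TPM, and 361 with TPM rescaled over protein-coding genes and processed pseudogenes. With the lower bound of the gene tables' own 95% interval at 1 TPM or more in each library, chosen after seeing the data, it was 90. Leaving out 1 library gave 147 to 182, and 10 counts in each library left 146. The members' share of 0.163% was 0.0704% in expected counts, 0.114% in est_counts TPM and 0.105% in estimated counts, and 0.145 to 0.175% with a library left out. The 88 members that passed 2-fold between tables were 57 at 4-fold and 34 with a pseudocount of 1, and 87 to 101 under the other alternatives, each library left out included (94 to 100). The 18 lower ones were 3 without centring. The 98 members that varied between libraries were 63 in estimated counts (44 of them shared) and 63 to 80 with a library left out, lowest without replicate 1. The 159 members below their parents were 155 in est_counts TPM and 158 to 160 with a library left out. By symbol alone a parent was found for 43, of which 41 lay below it. Windows of 50 and 100 bases left 68 and 66 of 70 members with all windows shared. Low counts limit the precision of the 21 members with fewer than 10 counts in a library. No paired analysis was possible because there is 1 group.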

Other observations

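Outside the members, the est_counts tables put Gm12895 and Gm12896, a pair of processed pseudogenes with no parent found, at 161066, 127194 and 106711 TPM each in replicates 1, 2 and 3. The gene tables list both at 0. Together they took 32.2, 25.4 and 21.3% of the est_counts TPM, while Rn7s1 and Rn7s2 took 18.4, 29.3 and 25% of it. Gm19220, whose best match is Naa10 at 74.7% identity, had 65.6, 24.1 and 20.7 TPM in the est_counts tables and was also listed at 0 in the gene tables, as was Vamp7-ps, with 5.13, 4.72 and 5.56 TPM. These 4 genes were chosen to be named after their values were seen.

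Rps12 and Rpl12, parents of 1 member each, had 644, 538 and 492 TPM and 234, 166 and 158 TPM in the gene tables. In the est_counts tables Rps12 had 6.31, 6.55 and 7.35 TPM and Rpl12 had 1.46, 1.57 and 1.92 TPM. With the member added the sums still passed 2-fold in both, and those of the other 142 parents did not.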
